A study of Mus musculus with 6 samples.

Results

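Cytochrome P450 enzymes of families CYP1 and CYP2, with the reductase that supplies them with electrons, were followed in liver RNA from mice lacking Gα12. The list held 32 genes: 31 P450 genes and Por. A gene's probes were those whose RefSeq accession belonged to it in the GRCm38 gene table, and 29 of the 32 genes had at least 1 of 37 such probes. No probe was matched to Cyp2a5, Cyp2c40 and Cyp2c69. The table lists Cyp2c44 as another name of Cyp2c23. A probe was kept when 3 or more of the 6 arrays, of either genotype, marked its signal well above background, and 33 probes of 25 genes were kept, of 23132 probes and 12294 named genes in all. Cyp1a1, Cyp2a22, Cyp2b9 and Cyp2b13 had probes but none that was kept.

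Livers came from 3 Gα12 KO mice, which lack a G protein α subunit encoded by Gna12, and from 3 WT mice. All mice were males of 8 weeks on a C57BL/6 and 129/Sv background that was 95% C57BL/6, kept on chow and fasted overnight before the liver was taken. Which part of Gna12 was deleted, and in which cells, is not in the labels, and its 1 probe was well above background on 0 of 3 Gα12 KO arrays and 1 of 3 WT arrays, so it checks the genotype only weakly. Each liver was hybridised to a 1-colour Agilent array, and a level below is a log2 signal minus its array's 75th percentile. In whole liver, fewer cells of a type and less RNA per cell cannot be told apart.

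P450 enzymes are haem proteins of the endoplasmic reticulum that insert an oxygen atom into drugs, steroids, fatty acids and environmental chemicals, and Por passes them electrons from NADPH. In the liver many CYP1 and CYP2 genes are driven by receptors that sense foreign chemicals. The aryl hydrocarbon receptor AhR acts on Cyp1a genes, and the nuclear receptors CAR and PXR act on Cyp2b and Cyp2c genes. Pituitary growth hormone sets which of these genes are high in male or in female mice, and several enzymes are made mainly by hepatocytes around the central vein.

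The livers of the WT group were not alike, and this touches every comparison below. Across kept probes, r was 0.973 between WT replicates 1 and 2, while their correlations with the 3 Gα12 KO arrays were 0.869 to 0.930. WT replicate 3 correlated with the Gα12 KO arrays at 0.966 to 0.982. Over all genes, WT replicates 1 and 2 both lay above the other 4 arrays for 59.2% and both below them for 16.4%. All arrays lay on 1 slide, with the Gα12 KO arrays in its second row and the WT arrays in its first, so row and genotype cannot be told apart. Spots marked non-uniform numbered 98 to 158 on Gα12 KO arrays and 2 to 6 on WT arrays. All 5 hepatocyte markers were well above background on every array. Marker signals of other cell types, linear and relative to the 75th percentile, were summed over the markers measured. The 5 Kupffer cell markers summed to 57.3 to 73.7 on Gα12 KO arrays, against 136 and 119 on WT replicates 1 and 2 and 55.4 on WT replicate 3. The 4 stellate cell markers summed to 62.9 to 76.1 on Gα12 KO arrays, against 142, 123 and 82.8 on WT replicates 1 to 3. The 3 red blood cell markers summed to 262 to 305 on Gα12 KO arrays, against 473, 524 and 290 on WT replicates 1 to 3. Such linear sums mostly follow the brightest marker, which was Dcn for stellate cells and Hba-a1 for red blood cells. The 5 sinusoidal endothelial cell markers, taken as a sum, did not set WT replicates 1 and 2 above the other arrays. They summed to 88.7 to 116 on Gα12 KO arrays and to 129, 102 and 101 on WT replicates 1 to 3. Nor did the cholangiocyte, neutrophil and lymphocyte sums. Within the Kupffer and stellate cell lists, Marco and Des were not highest on WT replicates 1 and 2. The sinusoidal endothelial list was mixed. Its markers Stab2 and Lyve1 were highest on WT replicates 1 and 2, Kdr and Pecam1 were lowest there, and Clec4g did neither. The part of these cell types in the P450 differences was not tested. Differences of the P450 genes described in full are therefore also given against WT replicate 3 alone, where that lone liver is assumed to vary like the Gα12 KO livers.

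No P450 gene passed the test over all probes. In limma, 0 of the 25 measured genes had an adjusted p below 0.05 (Benjamini-Hochberg), as did 0 of all 12294 genes (0%). Among the 25, each read by its brightest probe, the lowest adjusted p was 0.235. With an unadjusted p below 0.05, 4 P450 genes of the 25 were lower in the Gα12 KO, where the share over all genes was 16.6%. These were Cyp2g1, Cyp2c44, Cyp2j5 and Cyp2r1. At the same p, 2 of 25 were higher, Cyp1a2 and Cyp2u1, where the share over all genes was 3.99%. The lower share among the P450 genes, 16.0%, was thus close to that of all genes. Without WT replicate 3, limma called 16 of the 25 genes, and 13123 of 23132 probes over the array. That liver thus decides whether genes pass across the array, P450 genes among them. At an unadjusted p below 0.05, 11 of the 25 were then lower and 6 higher, where the shares over all genes were 54.8% and 13.4%. Leaving out any 1 of the other 5 livers left Cyp2g1 as the 1 lower gene at an unadjusted p below 0.05, and 0 or 1 higher genes. Over all genes the shares were then 4.50% to 8.39% lower and 1.03% to 2.33% higher.

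All 3 Gα12 KO livers lay below all 3 WT livers for 6 of the 25 genes, against 21.1% of all genes, and above them for 2, against 4.42%. The median difference of the 25 genes, Gα12 KO minus WT, was -0.17, and that of all genes was -0.49. Against WT replicate 3 alone the medians were -0.22 for the P450 genes and -0.03 for all genes, so the order of these medians turned round without WT replicates 1 and 2. The median of all genes depends on how arrays are scaled, at -0.36 with median scaling, -0.21 with quantile normalization and -0.17 with normexp, and directions below are relative to the 75th percentile. The spread between livers was unequal as well: the median SD over the 25 genes was 0.18 in the Gα12 KO group and 0.54 in the WT group, and WT had the larger SD for 23 of them.

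**Figure D1:**
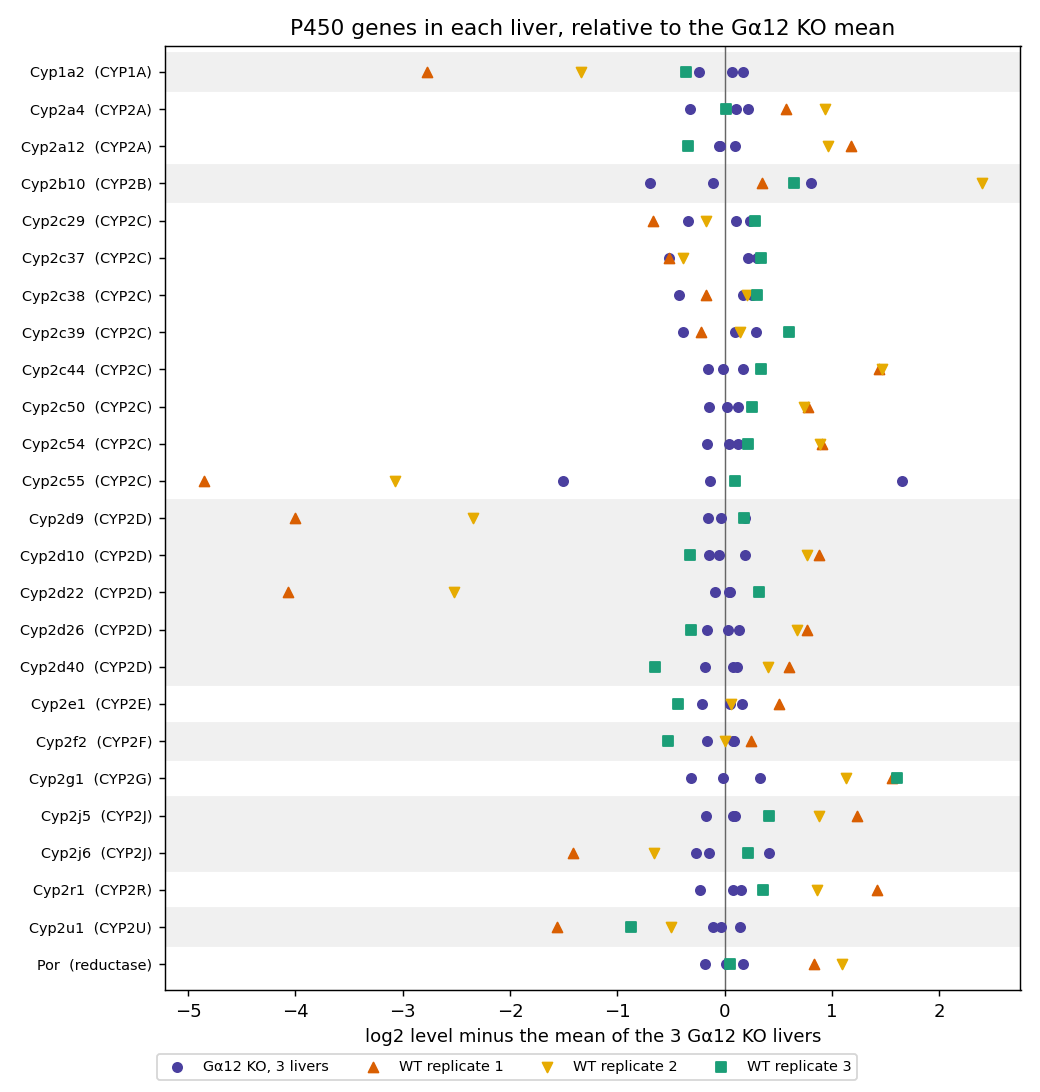
Level of each of the 25 measured genes in each liver, as log2 level minus the mean of the 3 Gα12 KO livers, with genes listed by subfamily. Circles are Gα12 KO livers, triangles WT replicates 1 and 2, and squares WT replicate 3; for Cyp2g1 the 3 WT points lie together to the right, whereas for Cyp2d9, Cyp2d22 and Cyp2c55 WT replicates 1 and 2 lie far to the left and WT replicate 3 does not.

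Cyp1a2 of the CYP1A subfamily, which oxidises caffeine and aromatic amines, had the larger difference of the 2 higher genes. Its log2 levels were 5.16, 5.25 and 4.85 in Gα12 KO livers and 2.31, 3.75 and 4.73 in WT livers. All Gα12 KO livers were above all WT livers, but WT replicate 3 lay only just below the lowest of them. The difference was 1.49 (SE 0.59, n = 3 per group, limma adjusted p = 0.235), and against WT replicate 3 alone it was 0.36 (SE 0.25). Its neighbour Cyp1a1, the classical AhR target, was not well above background on any Gα12 KO array and was so on WT replicates 1 and 2. Cyp1a1 had levels of -3.33, -4.57 and -4.46 in Gα12 KO livers and -2.87, -2.38 and -4.12 in WT livers. No fold can be given for it, because the WT mean of -3.12 lies below the lowest signals that counted as well above background on Gα12 KO arrays (-2.79 to -2.48).

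The CYP2A subfamily holds steroid and coumarin hydroxylases. Cyp2a4, a testosterone hydroxylase gene of higher level in female mice, had levels of 8.19, 8.30 and 7.76 in Gα12 KO livers and 8.66, 9.02 and 8.10 in WT livers by its brighter probe. WT replicates 1 and 2 were the highest of the 6, and WT replicate 3 lay within the Gα12 KO range. The difference was -0.50 (SE 0.37), or -0.01 against WT replicate 3 alone, and the dimmer probe gave 0.36 (SE 0.41), so the sign depended on the probe. Cross-reaction of these probes with Cyp2a5, which had no matched probe, was not tested. Cyp2a12, another testosterone hydroxylase gene, showed the same division of the WT livers. It was at 7.95, 7.81 and 7.80 in Gα12 KO livers and at 9.03, 8.81 and 7.51 in WT livers, and its difference of -0.60 (SE 0.45) was 0.34 against WT replicate 3 alone. Cyp2a22 was well above background on 1 array of each group and at -2.65 and -1.35 on those 2 arrays, Gα12 KO replicate 3 and WT replicate 2.

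In the CYP2B subfamily, Cyp2b10, the gene most used as a readout of CAR, varied between livers of both groups. Its levels were 2.37, 1.46 and 0.87 in Gα12 KO livers and 1.92, 3.96 and 2.21 in WT livers. The groups overlapped, and WT replicate 2 stood above the rest. The difference was -1.13 (SE 0.63, limma adjusted p = 0.274), with a 95% interval of -2.59 to 0.33, and -0.64 against WT replicate 3 alone. The female-predominant genes Cyp2b9 and Cyp2b13 were not well above background on most arrays of these males. Cyp2b9 was well above background on 1 Gα12 KO array (1.21 in replicate 1) and 1 WT array (-1.61 in replicate 3). Cyp2b13 was well above background on no Gα12 KO array and on 2 WT arrays (-1.87 and -2.89 in replicates 2 and 3). The value of -2.89 lies below the lowest signals that counted as well above background on Gα12 KO arrays (-2.79 to -2.48).

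The CYP2C subfamily, the largest in mice, makes epoxides and hydroxy acids from arachidonic and linoleic acid and oxidises many drugs. Of its 10 listed genes 8 were measured, with differences from -1.08 (Cyp2c44) to 2.61 (Cyp2c55). Cyp2c44, an epoxygenase gene, had levels of 6.67, 6.47 and 6.33 in Gα12 KO livers and 7.93, 7.95 and 6.83 in WT livers. All Gα12 KO livers were below all WT livers, with WT replicate 3 nearest to them. The difference was -1.08 (SE 0.40, limma adjusted p = 0.235), and -0.34 (SE 0.23) against WT replicate 3 alone.

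Cyp2c50 and Cyp2c54, 2 closely related epoxygenase genes, also separated the groups without passing at an unadjusted p below 0.05. Cyp2c50 was at 8.11, 8.00 and 7.83 in Gα12 KO livers and at 8.76, 8.72 and 8.24 in WT livers, a difference of -0.59 (SE 0.32), or -0.26 against WT replicate 3 alone. Cyp2c54 was at 7.66, 7.58 and 7.37 in Gα12 KO livers and at 8.45, 8.42 and 7.75 in WT livers by its brightest probe, a difference of -0.67 (SE 0.34), or -0.22 against WT replicate 3 alone. Both differences over all livers lay close to the median of all genes, at 0.10 and 0.18 below it.

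Cyp2c55, best known from the intestine, had the widest range over the 6 livers of the 25 genes. It was at 2.80, 1.02 and -0.35 in Gα12 KO livers and at -3.70, -1.91 and 1.25 in WT livers, where replicate 1 was not well above background. WT replicate 3 lay within the Gα12 KO range. The difference of 2.61 (SE 1.27) became -0.09 (SE 1.30) against WT replicate 3 alone. Cyp2c29, Cyp2c37, Cyp2c38 and Cyp2c39, by their brightest probes, had overlapping groups and differences of -0.17 to 0.19.

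Against WT replicate 3 alone, the differences of these 8 CYP2C genes were all negative, at -0.60 to -0.09, and WT replicate 3 lay above all Gα12 KO livers for 7 of the 8. Over all genes that held for 32.6%. Of 3 further measured CYP2C genes outside the list, Cyp2c67 and Cyp2c68 were also negative against WT replicate 3 alone, and Cyp2c70 was positive at 0.12. Gα12 KO replicate 3 was the lowest of the 3 Gα12 KO livers for all 8, as it was for 37.8% of all genes. This was not particular to CYP2C, since it held for 18 of the 25 measured genes, among them 3 of 5 CYP2D genes. These 8 genes all lie on chromosome 19, are related in sequence and were read on the same arrays. Cross-reaction of their probes was not tested, so they are not 8 independent observations.

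The 5 genes of the CYP2D subfamily, each read by 1 probe, split into 2 kinds by the WT livers. WT replicates 1 and 2 were both below the other livers for 2 of the 5 and both above them for 3. CYP2C genes were split as well, with both below for 1 gene, Cyp2c55, and both above for 3. Over all genes the shares were 16.4% both below and 59.2% both above, so such a split was not particular to CYP2D. Cyp2d34, a CYP2D gene outside the list, had 2 probes with differences of -0.57 and 2.12. Whether the 2 kinds are of genes or of probes was not tested. Cyp2d9, a testosterone hydroxylase gene of male mice, had levels of 7.26, 7.49 and 7.14 in Gα12 KO livers and 3.30, 4.95 and 7.47 in WT livers. Cyp2d22, often called the nearest mouse counterpart of human CYP2D6, was at 5.04, 5.19 and 5.18 in Gα12 KO livers and at 1.07, 2.62 and 5.46 in WT livers. WT replicate 3 lay within the Gα12 KO range for Cyp2d9 and just above it for Cyp2d22, and WT replicates 1 and 2 were far lower for both. Their differences of 2.06 (SE 0.93) and 2.09 (SE 0.97) became -0.18 and -0.32 against WT replicate 3 alone. These 2 genes were chosen for full values after their pattern was seen.

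Cyp2d26, Cyp2d10 and Cyp2d40 showed the opposite order. Cyp2d26 was at 9.49, 9.59 and 9.29 in Gα12 KO livers and at 10.23, 10.13 and 9.14 in WT livers. WT replicates 1 and 2 were above, and WT replicate 3 below, all Gα12 KO livers, as also for Cyp2d10 and Cyp2d40. The differences of the 3 genes were -0.44 to -0.12 over all livers and 0.32 to 0.65 against WT replicate 3 alone. Over all genes WT replicate 3 lay below every Gα12 KO liver for 26.8%. The CYP2C and CYP2D genes thus had medians of -0.14 and -0.12 over all livers, and of -0.29 and 0.32 against WT replicate 3 alone.

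**Figure D2:**
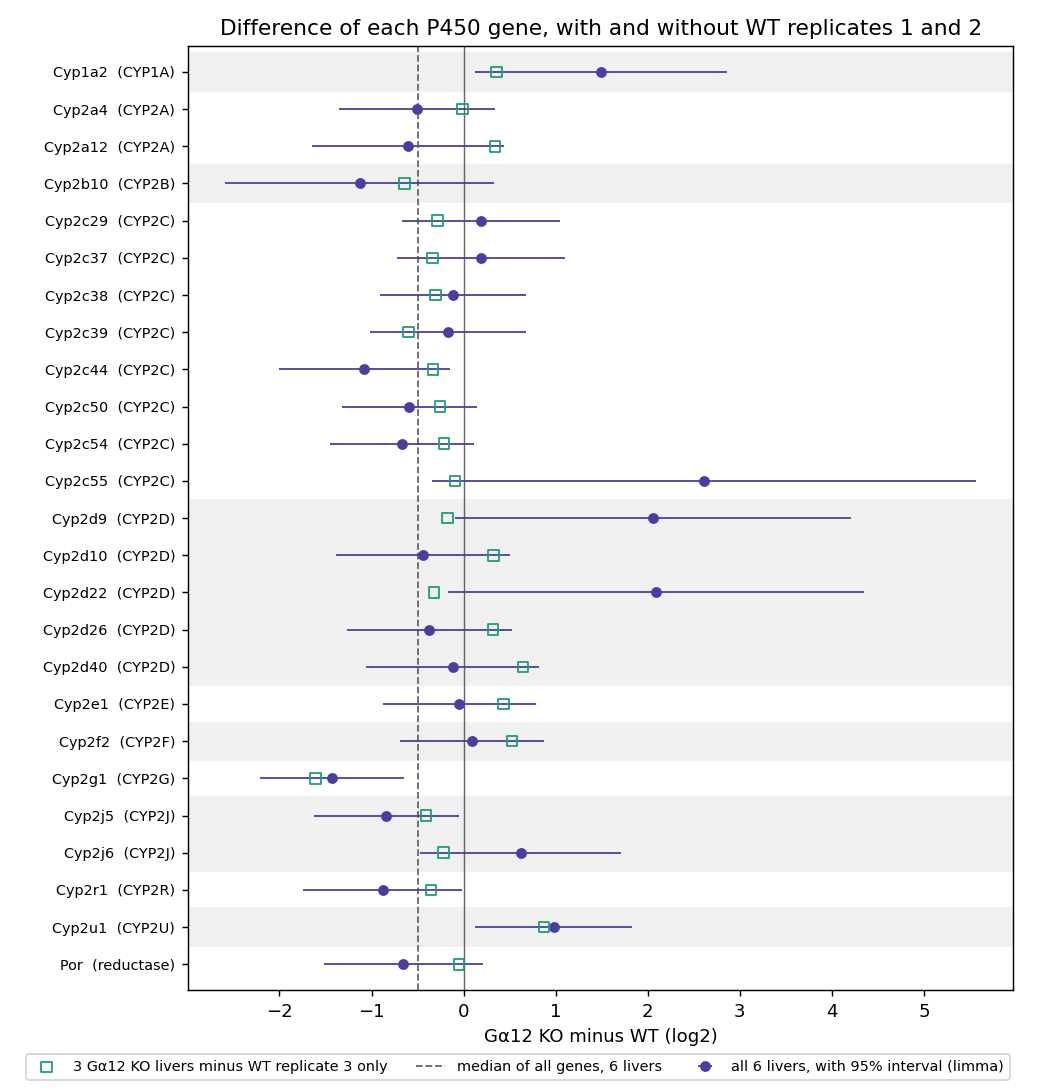
Difference of each measured gene, Gα12 KO minus WT on the log2 scale. Filled circles use all 6 livers, with 95% intervals from limma; open squares use WT replicate 3 as the sole WT liver; the dashed line is the median of all genes (-0.49). The 2 symbols nearly coincide for Cyp2g1 and Cyp2u1 and lie far apart for Cyp2c55, Cyp2d9 and Cyp2d22.

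Cyp2e1, which oxidises ethanol and activates paracetamol in hepatocytes around the central vein, did not separate the groups. By its brighter probe it was at 10.05, 10.17 and 9.79 in Gα12 KO livers and at 10.51, 10.06 and 9.57 in WT livers, a difference of -0.05 (SE 0.36) with a 95% interval of -0.87 to 0.78. Against WT replicate 3 alone it was 0.43. Cyp2f2, known for naphthalene oxidation and for its place in hepatocytes near the portal vein, was at 9.45, 9.45 and 9.20 in Gα12 KO livers and at 9.62, 9.38 and 8.84 in WT livers. Its difference was 0.09 (SE 0.33), with an interval of -0.69 to 0.87, and 0.53 against WT replicate 3 alone. For both genes WT replicate 3 was the lowest of the 6 livers.

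Cyp2g1, a steroid hydroxylase gene best known from the olfactory lining, had the lowest p of the 25 genes, each read by its brightest probe. Its log2 levels were -1.68, -1.03 and -1.38 in Gα12 KO livers and 0.19, -0.24 and 0.24 in WT livers, well above background on all 6 arrays. The 3 WT livers lay close together, including WT replicate 3, and all were above every Gα12 KO liver. The difference was -1.43 (SE 0.33, unadjusted p = 0.00299, limma adjusted p = 0.235), which is 0.94 below the median of all genes. Against WT replicate 3 alone it was -1.61 (SE 0.32, limma adjusted p = 0.603). Cyp2g1 was lower at an unadjusted p below 0.05 in each of the 16 other settings, and its difference ranged from -1.61 to -1.06 among them.

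The remaining subfamilies each gave a gene past an unadjusted p of 0.05. Cyp2j5, an arachidonic acid epoxygenase gene of liver and kidney, was at 0.78, 0.52 and 0.76 in Gα12 KO livers and at 1.92, 1.57 and 1.10 in WT livers. Cyp2r1, whose enzyme hydroxylates vitamin D in the liver, was at 3.75, 3.44 and 3.82 in Gα12 KO livers and at 5.09, 4.53 and 4.02 in WT livers. In both genes WT replicate 3 was the WT liver closest to the Gα12 KO group. Their differences were -0.84 (SE 0.34) and -0.88 (SE 0.37), with limma adjusted p = 0.235 and 0.237, and -0.41 and -0.35 against WT replicate 3 alone. The second probe of Cyp2r1 gave -1.18 (SE 0.43).

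Cyp2u1, a hydroxylase gene for long-chain fatty acids, had all 3 WT livers below the Gα12 KO group. It was at -0.27, -0.45 and -0.52 in Gα12 KO livers and at -1.97, -0.92 and -1.29 in WT livers, and WT replicate 2 was nearest to the Gα12 KO livers. The difference was 0.98 (SE 0.37, limma adjusted p = 0.235), and 0.87 (SE 0.21, limma adjusted p = 0.626) against WT replicate 3 alone. Cyp2j6, a relative of Cyp2j5, had overlapping groups, at 3.25, 2.58 and 2.70 in Gα12 KO livers and at 1.43, 2.19 and 3.06 in WT livers, with a difference of 0.62 (SE 0.47), or -0.22 against WT replicate 3 alone.

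Por, the electron donor of all these enzymes, was at 5.24, 5.59 and 5.44 in Gα12 KO livers and at 6.25, 6.52 and 5.48 in WT livers. WT replicates 1 and 2 lay above, and WT replicate 3 within, the Gα12 KO range. The difference was -0.66 (SE 0.37, limma adjusted p = 0.279), and -0.05 (SE 0.23) against WT replicate 3 alone.

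For genes with several kept probes, the P450 value could depend on the probe. There were 7 such genes, and the probes of 3 of them, Cyp2a4, Cyp2c54 and Cyp2e1, had differences of opposite sign, as did 43.1% of the 2735 such genes on the array. Of these 3 genes, Cyp2c54 had the widest gap between its probes' differences. The brightest gave -0.67, whereas the other 2 gave 1.18 (SE 0.84) and 1.25 (SE 0.92), probes shown after their values were seen. The dimmest was at 3.91, 3.56 and 3.28 in Gα12 KO livers and at 0.14, 2.57 and 4.28 in WT livers. Against WT replicate 3 alone all 3 probes pointed the same way, at -0.22, -0.66 and -0.70. From its brightest to its dimmest probe Cyp2c54 spanned 3.75 to 4.09 log2 units on Gα12 KO arrays, against 8.31 and 5.85 on WT replicates 1 and 2 and 3.47 on WT replicate 3. Not all 7 genes did so: their median span was 2.10 to 2.46 on Gα12 KO arrays, against 3.00 and 2.23 on WT replicates 1 and 2 and 1.98 on WT replicate 3. The span was widest on WT replicate 1 for 4 genes and on Gα12 KO replicate 2 for 3. Over all 2735 genes the median span was 1.79 to 1.90 on Gα12 KO arrays, against 2.89 and 2.54 on WT replicates 1 and 2 and 1.63 on WT replicate 3. The part of this probe dependence in the differences between the groups was not tested.

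Cyp2c38, whose dimmer probe was also singled out after its values were seen, differed in another way. Its brighter probe was at 7.94, 7.85 and 7.26 in Gα12 KO livers and at 7.51, 7.89 and 7.99 in WT livers, a difference of -0.11 (SE 0.34). Its dimmer probe was at -3.33, -4.10 and -1.35 in Gα12 KO livers and at 0.61, 1.62 and 0.32 in WT livers. Of the Gα12 KO livers only replicate 3 was well above background there, whereas all WT livers were, WT replicate 3 included. The probe was kept through the WT arrays, where it is high, and 2 Gα12 KO values are not well above background, so neither a difference nor a test is given for it. Which transcripts each probe detects was not tested.

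**Figure D3:**
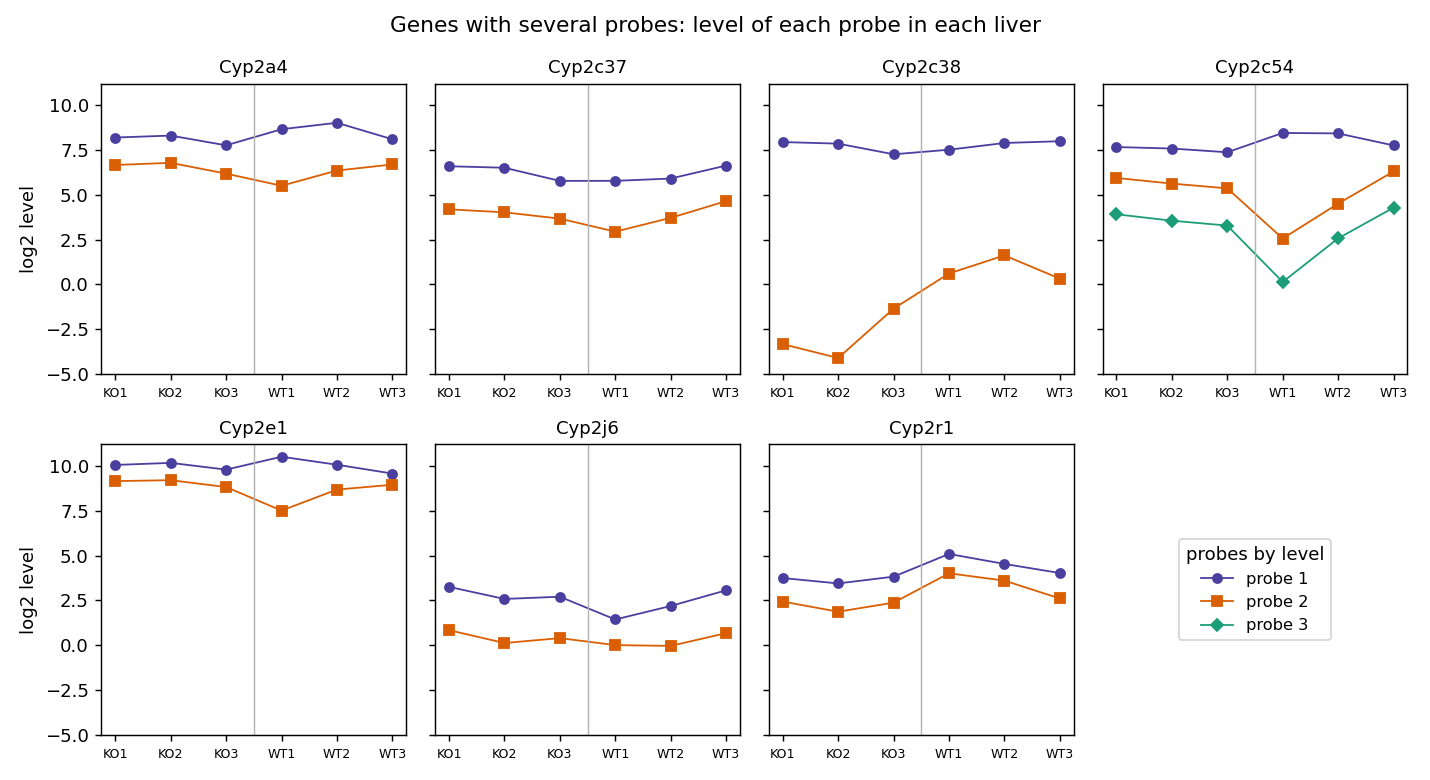
Log2 level of each kept probe in each liver for the 7 genes with several kept probes, Gα12 KO livers left of the grey line and WT livers right of it. The probes of Cyp2a4, Cyp2c54 and Cyp2e1 diverge on WT replicates 1 and 2, and those of Cyp2r1 run in parallel. The dimmer probe of Cyp2c38 is not well above background on Gα12 KO replicates 1 and 2, so its groups are not compared.

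Promoter sequences are shown for Cyp1a2, Cyp2j5 and Cyp2r1, genes past an unadjusted p of 0.05, and for Cyp1a1 as the AhR target beside Cyp1a2. They are RefSeq sequences of GRCm38.p6 on the gene's strand, from 250 bases before to 50 after the start. Capitals mark letters found on either strand: TATAAA (the letters of a TATA box), GCGTG (the core that AhR binds), TGTTTAC (a forkhead site), CCAAT, and TTCNNNGAA (a STAT site). None of these motifs contains another.
Cyp1a2, chr9:57683606-57683905, minus strand: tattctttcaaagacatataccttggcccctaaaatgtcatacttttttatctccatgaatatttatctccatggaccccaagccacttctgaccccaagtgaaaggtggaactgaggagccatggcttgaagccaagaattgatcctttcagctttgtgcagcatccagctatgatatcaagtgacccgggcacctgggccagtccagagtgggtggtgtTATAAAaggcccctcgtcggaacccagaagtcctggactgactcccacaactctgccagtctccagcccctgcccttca
Cyp1a1, chr9:57697363-57697662, plus strand: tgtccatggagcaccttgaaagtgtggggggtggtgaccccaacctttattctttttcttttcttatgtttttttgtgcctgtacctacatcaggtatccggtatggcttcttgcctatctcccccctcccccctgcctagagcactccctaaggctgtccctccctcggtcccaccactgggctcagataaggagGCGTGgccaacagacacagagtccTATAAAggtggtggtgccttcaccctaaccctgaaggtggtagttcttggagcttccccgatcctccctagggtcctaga
Cyp2j5, chr4:96664070-96664369, minus strand: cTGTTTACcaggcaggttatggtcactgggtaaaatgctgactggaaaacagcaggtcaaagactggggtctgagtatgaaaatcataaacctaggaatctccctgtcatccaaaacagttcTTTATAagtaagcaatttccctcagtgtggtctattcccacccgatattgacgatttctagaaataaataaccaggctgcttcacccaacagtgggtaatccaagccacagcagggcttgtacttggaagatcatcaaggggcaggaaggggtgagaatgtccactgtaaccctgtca
Cyp2r1, chr7:114562923-114563222, minus strand: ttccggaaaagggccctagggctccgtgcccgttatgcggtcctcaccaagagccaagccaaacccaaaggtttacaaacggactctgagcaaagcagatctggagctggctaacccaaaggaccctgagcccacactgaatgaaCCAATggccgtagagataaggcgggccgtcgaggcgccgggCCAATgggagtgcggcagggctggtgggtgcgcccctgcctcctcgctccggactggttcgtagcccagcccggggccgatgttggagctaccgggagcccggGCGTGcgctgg

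Of the 32 genes 27 had at least 1 of 28 promoters in the table. TATAAA was found in 64.3% of these promoters, against 13.6% of all 32851 promoters, and GCGTG in 14.3% against 32.4%. TGTTTAC was in 14.3% against 3.65%, CCAAT in 42.9% against 37.4%, and TTCNNNGAA in 0% against 8.30%. The share for TGTTTAC rests on 4 promoters of 3 genes, Cyp2c38, Cyp2c39 and Cyp2j5, of which Cyp2c38 and Cyp2c39 are related in sequence. Cyp1a2 and Cyp1a1 both hold TATAAA, and of the 2 only Cyp1a1 holds GCGTG in this window. Cyp2r1, which lacks TATAAA here, holds CCAAT 2 times and GCGTG once, and the TATAAA of Cyp2j5 is on the other strand. These matches describe letters in a short window and say nothing about binding in these livers.

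Other genes of the pathway were read from lists chosen with earlier results of these data known. Of 20 further CYP1 and CYP2 genes 10 were measured, of which an unadjusted p below 0.05 was found for 3 lower and 0 higher ones, where the shares over all genes were 16.6% and 3.99%. Cyp2j9, another relative of Cyp2j5, was at -0.15, -0.30 and 0.54 in Gα12 KO livers and at 2.88, 2.02 and 1.49 in WT livers. Its difference of -2.10 (SE 0.45, limma adjusted p = 0.235) was -1.45 against WT replicate 3 alone, and the groups did not overlap. Cyp2c68 and Cyp2c67 differed by -1.17 (SE 0.38) and -1.25 (SE 0.43), and by -0.59 and -0.50 against WT replicate 3 alone.

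Among 17 measured genes of the list for AhR, CAR and PXR and their partners, an unadjusted p below 0.05 was found for 2 that were lower and 3 that were higher (16.6% and 3.99% over all genes). Nr1i3, which encodes CAR, was at 4.03, 4.36 and 3.84 in Gα12 KO livers and at 5.12, 5.16 and 4.79 in WT livers. No values overlapped, and its difference was -0.95 (SE 0.32, limma adjusted p = 0.235), or -0.72 against WT replicate 3 alone. Cebpb, a transcription factor gene of fasting and inflammation, differed by 0.95 (SE 0.35), or 0.73 against WT replicate 3 alone. Cebpa differed by 2.28 (SE 0.92), but WT replicate 3, at 4.48, was level with the Gα12 KO livers, and WT replicates 1 and 2 were at 0.51 and 1.40. The list's median was -0.47, close to that of all genes.

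Haem, the prosthetic group of every P450, begins with Alas1, the rate-limiting enzyme of its synthesis. Alas1 was at 8.12, 7.03 and 7.27 in Gα12 KO livers and at 6.92, 6.17 and 6.45 in WT livers. All Gα12 KO livers lay above all WT livers, with a difference of 0.96 (SE 0.40, limma adjusted p = 0.237), or 1.02 against WT replicate 3 alone. Blvrb, a biliverdin reductase gene, differed by -0.98 (SE 0.34), or -0.65 against WT replicate 3 alone. These were the 1 higher and 1 lower of 12 haem genes at an unadjusted p below 0.05 (3.99% and 16.6% over all genes), and the list's median was -0.60. Of 11 genes of electron supply and membrane partners, 3 were lower at that p (16.6% over all genes), namely Cyb5b (-1.29, SE 0.39), Me1 (-1.35, SE 0.52) and Pgrmc1 (-0.95, SE 0.39). Against WT replicate 3 alone these were -0.64, -0.34 and -0.29. The 1 higher gene (3.99% over all genes) was Idh1, named after its values were seen, at 3.60 (SE 1.53), or -0.54 against WT replicate 3 alone. Their median was -0.51.

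Genes that mark the zones of the liver lobule were counted in the same way, against 16.6% lower and 3.99% higher over all genes. Of 11 pericentral genes 1 was lower, the transcription factor gene Tbx3 (-1.52, SE 0.50, or -0.59 against WT replicate 3 alone), and 0 were higher, with a median of -0.34. Of 12 periportal genes 0 were lower and 1 was higher, Arg1 (1.69, SE 0.68), whose difference against WT replicate 3 alone was 0.05, and the median was -0.21. In the list for sex-biased P450 control, 1 of 7 genes was higher, Onecut1, against 3.99% over all genes. It was at 0.63, 0.05 and -3.04 in Gα12 KO livers and at -5.25, -5.61 and -1.79 in WT livers, well above background on 2 of 3 Gα12 KO arrays and 1 of 3 WT arrays. The groups overlapped, and no size of difference is given because 3 values were not well above background. The 7 genes had a median of -0.84, and of 0.13 against WT replicate 3 alone.

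**Figure D4:**
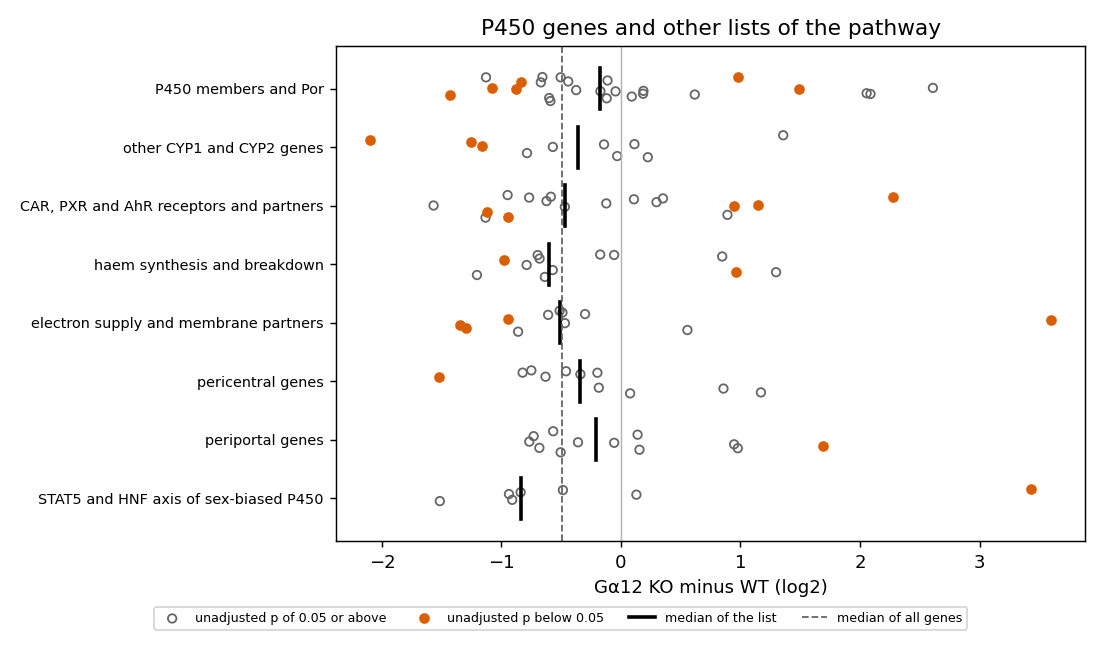
Difference of each measured gene, Gα12 KO minus WT on the log2 scale, for the 25 measured genes of the P450 list, Por included, and for 7 further lists. Orange points have an unadjusted p below 0.05 in limma, black bars are list medians, and the dashed line is the median of all genes (-0.49); in every list the median lies left of 0.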

How the data were processed

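Liver RNA was read on 1-colour Agilent arrays. The deposited scanner files hold linear spot intensity, made with Agilent Feature Extraction 10.7.3.1 per the submitters' processing notes and the file headers: a background-subtracted processed intensity, and median spot and background intensities. The deposited series matrix holds log2 values, equal within 0.01 to the log2 processed intensity plus a constant per array for 99.7% to 99.9% of probes and not centred. Its column medians were 4.32, 4.44 and 4.52 for Gα12 KO and 4.41, 4.17 and 4.70 for WT, and how the constants were chosen is unknown.

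Here log2 of the processed intensity minus the array's 75th percentile was used, without control spots and outlier-marked spots, averaged per probe. Of 55681 probes 55324 had values on all arrays, 26756 matched a symbol in the RefSeq GRCm38.p6 table, and 23132 were well above background on at least 3 of 6 arrays. Well above background numbered 20953 to 22585 probes on Gα12 KO arrays and 22951 to 28752 on WT arrays. Where a gene had several kept probes, the brightest on average stood for it. Gα12 KO minus WT was tested two-sided with limma 3.58.1 in R 4.3.3 (lmFit, eBayes) and Benjamini-Hochberg adjustment over all kept probes. The steps were tested on data simulated with the SD of the Gα12 KO arrays in both groups, which leaves out the wider spread of the WT livers. Values of genes with no kept probe come from the unfiltered data. Groups came from the sample titles. By the labels, 3 mice made up a group, so an array is treated as 1 mouse, and this number limits the precision.

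Genes given on every array are those with an unadjusted p below 0.05, those whose groups do not overlap, and the gene of highest signal in each subfamily; from each other list up to 3 genes with the lowest unadjusted p below 0.05 are named. Other genes and probes shown in full, such as Cyp2a12, Cyp2c55, Cyp2d9 and Cyp2d22, were chosen after their values were seen. The members and lists were chosen with earlier results of these data known. The plan named mean spot signals for normexp (offset 50), and median spot signals were used in their place. Alternatives covered scaling, background correction, the series matrix, filters, probe averaging, variance moderation, the replicate block and leaving out livers. Probe sequences were not used here.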

Additional observations from a re-analysis of the deposited data

How the results depend on the processing

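With every liver kept, limma called 0 of the measured P450 genes at an adjusted p below 0.05 under each alternative; leaving out 1 liver gave 0 to 16 called, 16 of them without WT replicate 3. Over the array, normexp gave 2 called probes, the filter on all 6 arrays 2, the mean over probes 7 genes, and leaving out 1 liver 0 to 13123 of 23132 probes. P450 genes lower at an unadjusted p below 0.05, 4 in the report, numbered 2 with median scaling and 1 to 11 with 1 liver left out. Over all genes the lower shares in these settings were 16.6%, 11.8% and 4.50% to 54.8%. Higher genes, 2 in the report, numbered 4 with the filter on all 6 arrays and 0 to 6 with 1 liver left out. Over all genes the higher shares in these settings were 3.99%, 3.77% and 1.03% to 13.4%. The median of the P450 genes minus that of all genes, 0.32 in the report, turned to -0.10 with no filter on dim probes and -0.19 without WT replicates 1 and 2, and was 0.12 to 0.45 with 1 liver left out. Same-numbered livers did not deviate together (r = -0.13, 0.01 and -0.04), so the numbers were not taken as pairing. With the replicate block, an unadjusted p below 0.05 was reached by 2 P450 genes on the lower side and 3 on the higher side. The shares over all genes were then 12.5% and 5.30%. The sign of the difference held for 9 of 25 genes under all 16 alternatives and turned in at least 1 for 16. Causes were not tested. Arrays are few, and no fold is given for dim probes such as those of Cyp1a1 and Cyp2b13.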
